A study of Mus musculus with 40 samples.

Results

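Transcripts of the butyrate pathway and of the caffeoyl-CoA reductase complex were followed in bacteria of the mouse cecum across 4 levels of dietary broccoli. The genes were chosen by symbol. They are the features of 5 bacterial count tables whose symbol, without a trailing copy number, is thlA, hbd, crt, bcd, etfA, etfB, buk, carC, carD or carE. This gave 21 of the 16737 features of those 5 genomes, and of 18450 features in the 6 tables of the series. Features named thlA, hbd, crt and bcd were each present in 3 genomes, carD was present as 3 features in 2 genomes, carE as 5 features in 4 genomes and buk as 1 feature in 1 genome. No feature carried the symbol etfA, etfB or carC. The bacteria are named as in the tables. L.bacterium335 had 6 of the genes, Acetatifactor 5, F. rodentium 8, D. muris 1 (carE) and X. muris 1 (buk).

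The mice were C57BL/6 animals, 3 weeks old at the start, that ate the Total Western Diet, a rodent diet modelled on Western nutrient intakes, for 6 weeks. For 3 further weeks broccoli powder made up 0% (plain diet), 0.5%, 1% or 2.5% of that food, so every group, 0% included, ate the Western diet. Each group held 10 libraries of total cecal RNA, depleted of 5S, 16S and 23S ribosomal RNA, and as the labels do not name the mouse behind each, p-values measure the spread between these libraries. The comparisons ask how each dose changed the level of these genes in each bacterium, and all 3 doses share the same 0% libraries.

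Butyrate is a short-chain fatty acid that gut bacteria make from acetyl-CoA and that cells of the colon lining use as fuel. In the common route a thiolase (thlA) joins acetyl-CoA units, 3-hydroxybutyryl-CoA dehydrogenase (hbd) and crotonase (crt) convert the product to crotonyl-CoA, and butyryl-CoA dehydrogenase (bcd) reduces that to butyryl-CoA with the help of an electron transfer flavoprotein. Butyrate kinase (buk) is part of one way to release the acid. The car symbols come from Acetobacterium woodii, where CarC reduces caffeoyl-CoA, a derivative of a plant phenolic acid, and CarD and CarE are its electron transfer flavoprotein subunits. Products were not given with the symbols, and carD also names an unrelated transcription regulator in Mycobacterium.

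Library totals over the 6 tables ranged from 236483 to 5107197 counts. Several libraries stood apart. For L.bacterium335, a median of 76.1% of features had any count and 18.1% of counts lay on 5 features at 2.5%, against 13.4% and 76.8% at 0%. For Acetatifactor these medians were 64.7% and 28.7% at 2.5%, and 17.4% and 56.8% at 0%. One 2.5% library, replicate 9, had 15.2% of L.bacterium335 features detected, within the 0% range of 11.99 to 15.4%, and 79.1% of counts on 5 features, and 2.5% replicate 8 had 14.9% of Acetatifactor features detected. For F. rodentium, replicates 6 and 9 of the 2.5% group held fewer than 10000 counts and were left out of its own fit. The part of these differences in the results was not tested, and results that rest on such a library are given without it where that moved them by more than 1.5 times.

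L.bacterium335 and Acetatifactor supplied most counts of these genes at 2.5%, and F. rodentium nearly all of them in mice without broccoli. Of all counts on the 21 genes in a library, F. rodentium held 98.6 ± 2.18% at 0%, 96.0 ± 3.00% at 0.5%, 68.5 ± 33.1% at 1% and 26.2 ± 19.0% at 2.5% (SD, n = 10 each). The highest share in a library was 52.8% at 2.5% and the lowest was 92.5% at 0%, so these 2 groups did not overlap. Nor did they overlap in the F. rodentium share of all counts on the 6 tables. That share was at most 31.6% at 2.5% and at least 38.6% at 0%, so the lack of overlap was not particular to these genes. The shares below are again of counts on the 21 genes. The L.bacterium335 share was 0.159 ± 0.274% at 0%, 1.81 ± 2.47% at 0.5%, 19.5 ± 24.9% at 1% and 48.1 ± 21.9% at 2.5%. The Acetatifactor share was 0.128 ± 0.121% at 0%, 1.26 ± 1.89% at 0.5%, 8.91 ± 9.31% at 1% and 22.4 ± 26.8% at 2.5%. L.bacterium335 held the largest share in 7 of 10 libraries at 2.5%, F. rodentium in 2 and Acetatifactor in 1, whereas F. rodentium held it in all 10 libraries at 0% and at 0.5%. At 1% the libraries were mixed, from 9.80 to 99.0% F. rodentium, with L.bacterium335 first in 2 of 10. These shares are a description of counts, without a test. In such bulk RNA, fewer cells of a bacterium and less RNA per cell cannot be told apart.

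**Figure D1:**
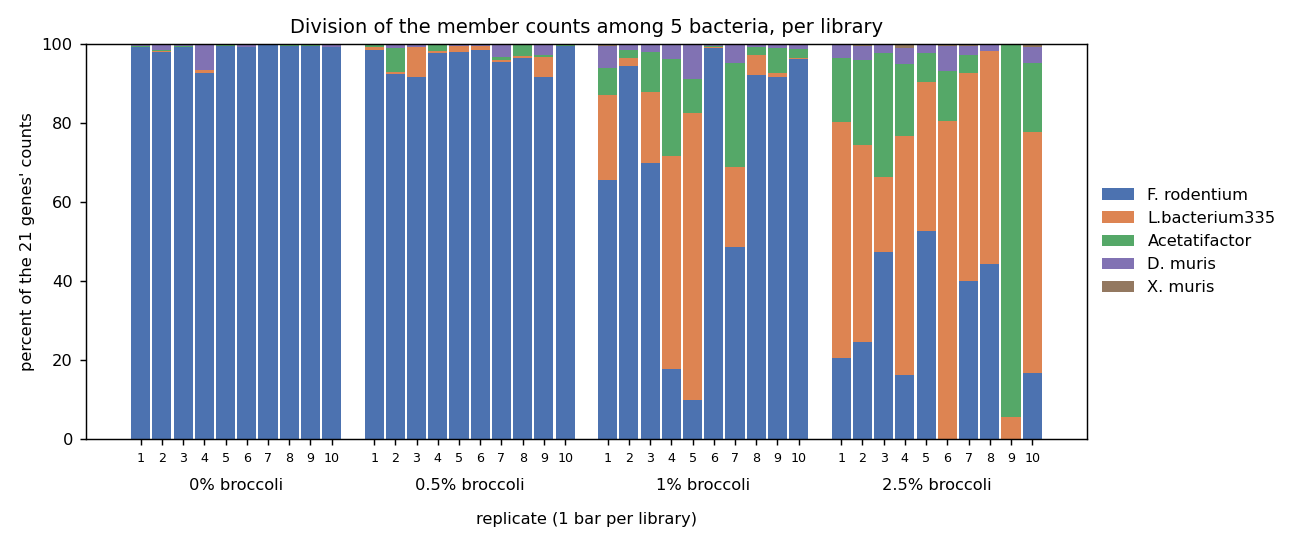
Percent of each library's counts on the 21 genes (vertical axis) that fell on each of 5 bacteria, with 1 bar per library and the groups in order of broccoli percent. F. rodentium fills at most 52.8% of any bar at 2.5%, where replicate 9 is 94.3% Acetatifactor, and 92.5 to 99.7% of each bar at 0%.

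Summed over the bacteria, the early steps of the pathway had lower mean levels at 2.5% than at 0%, and carE did not follow them. Levels here are CPM of the 6 tables, a gene's counts as parts of all counts of the library on those tables. Summed thlA was 1430 ± 807 at 0%, 1720 ± 647 at 0.5%, 1303 ± 1008 at 1% and 562 ± 200 at 2.5% (SD, n = 10 each). Summed hbd was 955 ± 504, 1190 ± 448, 925 ± 536 and 667 ± 200 at these doses, from 0 to 2.5%. Summed bcd was 1141 ± 697, 1467 ± 640, 1084 ± 819 and 541 ± 258. For thlA and bcd, each of the 10 libraries on 2.5% had less than the 0% mean, as did 9 of 10 for hbd, although the ranges overlapped. Summed crt, the crotonase, was 144 ± 72.6 at 2.5% and 356 ± 193 at 0%. Summed carD was 403 ± 205 at 2.5% and 975 ± 571 at 0%. Summed carE was 875 ± 346 at 2.5% and 711 ± 350 at 0%, with 2 of 10 libraries at 2.5% below the 0% mean. L.bacterium335 gave 62.9% of the mean carE level at 2.5%, with 13.1% from Acetatifactor, 12.8% from F. rodentium and 11.2% from D. muris, whereas F. rodentium gave 95.2% of it at 0%. These sums are descriptions and carry no test.

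**Figure D2:**
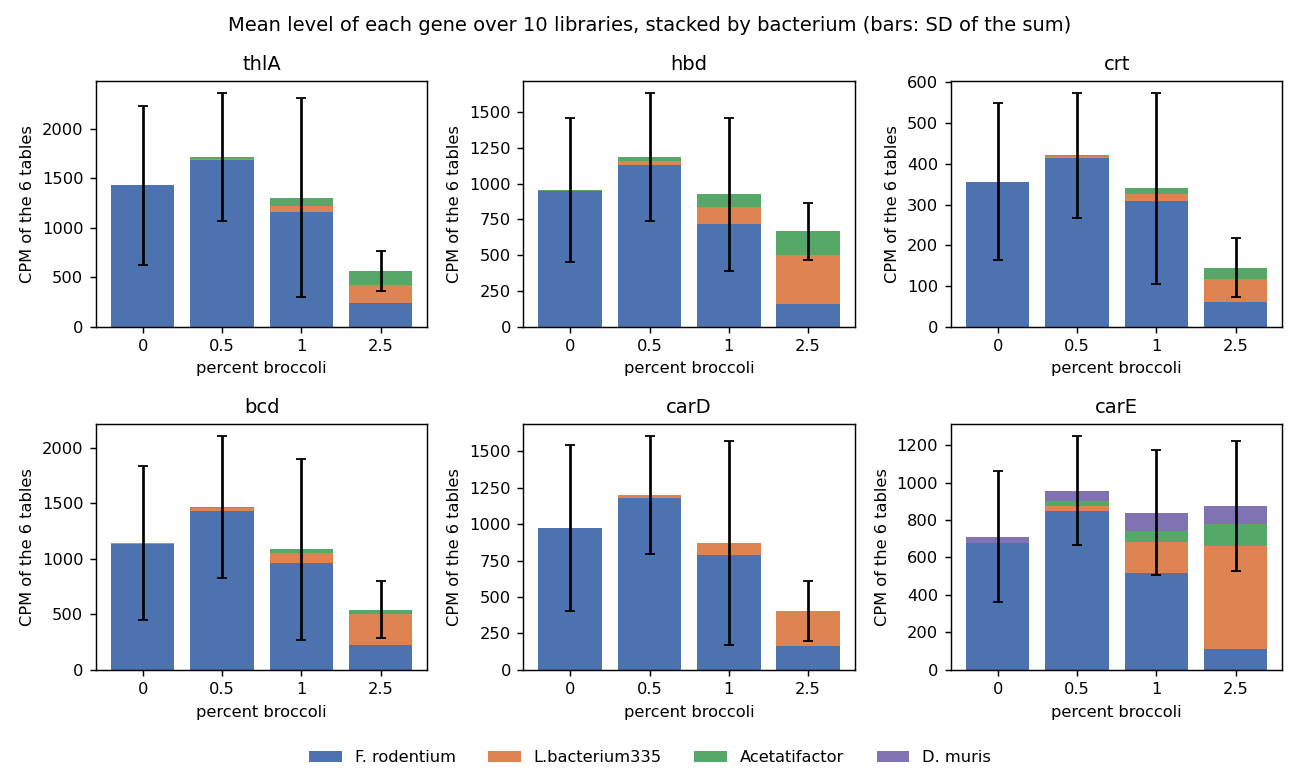
Mean level of 6 genes in CPM of the 6 tables (vertical axes) by broccoli percent, stacked by bacterium, with the SD of the summed level over 10 libraries. Summed thlA averaged 562 at 2.5% and 1430 at 0%, and summed carE averaged 875 at 2.5% and 711 at 0%, mostly from L.bacterium335 at 2.5%.

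The levels below are CPM within the genome, relative to the counts on the tested features of the same bacterium and scaled by TMM, edgeR's trimmed mean of M-values. They show how much of a bacterium's own measured RNA a gene took. Gene lengths were not used, so levels are compared between groups and not between genes. The L.bacterium335 and Acetatifactor genes passed the low-count filter (edgeR's filterByExpr) through the libraries with broccoli. Their calls of higher and their separation from the 0% libraries thus support nothing about the genes. At 2.5%, 77.8% of all tested L.bacterium335 features and 54.5% of those of Acetatifactor were called higher. Median log2 fold changes over all tested features were 7.94 and 1.81. In L.bacterium335, 903 of the 1384 tested features had 0 counts at 0%. How many features separated fully from the 0% libraries was not counted, so no separation given below is read as particular to a gene.

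The thiolase gene thlA was read in every F. rodentium library kept for its fit and, in L.bacterium335, in no library without broccoli. In L.bacterium335 it had 0 counts in all 10 libraries at 0%. Its lowest, median and highest CPM were 0, 60.9 and 228 at 0.5%, 0, 183 and 316 at 1%, and 0, 242 and 484 at 2.5%. At 2.5% it was detected in 9 of 10 libraries, the exception being replicate 9. Taking 3 counts over the 0% group as the floor, it was at least 32.6-fold higher at 0.5%, 65.8-fold at 1% and 80.1-fold at 2.5% than at 0% (adjusted p = 4.078e-10 at 2.5%, edgeR). In Acetatifactor, thlA had a lowest, median and highest CPM of 0, 0 and 590 at 0%, 0, 322 and 1083 at 0.5%, 186, 855 and 1085 at 1%, and 0, 697 and 1416 at 2.5%. Here 9 of 10 libraries at 2.5% lay above the highest 0% library, a separation not counted over other features, and replicate 8 was at 0. The log2 fold change at 2.5% was 3.28 ± 0.74 (SE, p = 0.0002448 after Benjamini-Hochberg adjustment over all tested features, edgeR's quasi-likelihood test). One 0% library, replicate 8, held 12 of its 18 counts at 0%, and without it the value was 5.04. In F. rodentium, thlA had a lowest, median and highest CPM of 614, 1879 and 3189 at 0%, 1281, 2361 and 3098 at 0.5%, 548, 2182 and 3616 at 1%, and 1124, 2493 and 3883 at 2.5%. The 4 groups overlapped, and the log2 fold change at 2.5% was 0.38 ± 0.28 (adjusted p = 0.4181, edgeR).

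The dehydrogenase gene hbd followed the same division between bacteria. In L.bacterium335 its lowest, median and highest CPM were 0, 0 and 46.6 at 0%, 96.1, 237 and 474 at 0.5%, 131, 235 and 760 at 1%, and 0, 459 and 876 at 2.5%. All libraries at 0.5% and 1%, and 9 of 10 at 2.5%, lay above the highest 0% library, a separation not counted over other features. With 3 counts in the whole 0% group, the ratio at 2.5% was 148.6 with a 95% counting interval of 50.8 to 721 (adjusted p = 1.27e-11, edgeR). All 3 of those counts came from 0% replicate 3, without which the 0% group was at 0. In Acetatifactor, hbd had a lowest, median and highest CPM of 0, 21.4 and 465.7 at 0%, 0, 484 and 1233 at 0.5%, 62.1, 867 and 1189 at 1%, and 0, 961 and 1610 at 2.5%. Again 9 of 10 libraries at 2.5% exceeded every 0% library. Its log2 fold change at 2.5% was 3.04 ± 0.71 (adjusted p = 0.0003257, edgeR), and 3.83 without 0% replicate 1. In F. rodentium, hbd had a lowest, median and highest CPM of 655, 1189 and 2032 at 0%, 977, 1449 and 2542 at 0.5%, 589, 1357 and 2407 at 1%, and 818, 1682 and 1954 at 2.5%. None of the 8 libraries at 2.5% lay outside the 0% range, and the log2 fold change was 0.25 ± 0.23 (adjusted p = 0.5325, edgeR).

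The crotonase gene crt was read at low counts outside F. rodentium and passed the low-count filter within the genome only there. F. rodentium crt averaged 593 ± 229 CPM at 2.5% (n = 8) and 453 ± 180 CPM at 0% (n = 10), with a log2 fold change of 0.31 ± 0.24 (adjusted p = 0.4319, edgeR). L.bacterium335 crt had 31 counts at 0.5%, 130 at 1% and 701 at 2.5%, and 0 counts at 0%. Acetatifactor crt had 22, 86 and 212 counts at those doses and 3 counts at 0%. Tested without the filter, crt at 2.5% was higher in L.bacterium335 (adjusted p = 2.67e-06, with 63.4% of all features called higher) and in Acetatifactor (adjusted p = 0.002665, edgeR, with 57.3%).

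The butyryl-CoA dehydrogenase gene bcd was called higher with broccoli in L.bacterium335 and Acetatifactor, where it passed the filter through the libraries with broccoli. In L.bacterium335 its lowest, median and highest CPM were 0, 5.08 and 49.9 at 0%, 0, 206 and 351 at 0.5%, 60.0, 314 and 593 at 1%, and 150, 336 and 774 at 2.5%. Every library at 1% and 2.5% lay above every 0% library, a separation not counted over other features and not read as particular to bcd. The log2 fold change at 2.5% was 4.64 ± 0.67 (adjusted p = 1.849e-09, edgeR). The bcd change was 4.02 without 2.5% replicate 6 and 4.01 without 2.5% replicate 8. It lay below the median over all tested L.bacterium335 features (7.94, or 5.29 with features at 0 counts at 0% set to their lower bounds). In Acetatifactor, bcd had a lowest, median and highest CPM of 0, 46.4 and 197 at 0%, 0, 170 and 508 at 0.5%, 124, 272 and 535 at 1%, and 0, 240 and 459 at 2.5%. The groups overlapped, 6 of 10 libraries at 2.5% exceeding the highest 0% library. Its log2 fold change at 2.5% was 2.02 ± 0.70 (adjusted p = 0.009095, edgeR), and 2.69 without 0% replicate 8. In F. rodentium, bcd had a lowest, median and highest CPM of 631, 1371 and 2739 at 0%, 1132, 1649 and 3353 at 0.5%, 751, 1707 and 3460 at 1%, and 1016, 2349 and 3733 at 2.5%. Its log2 fold change at 2.5% was 0.57 ± 0.26, which did not pass the test (adjusted p = 0.1549, edgeR).

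The flavoprotein gene carE was read in 4 bacteria. It was called higher relative to the same bacterium's RNA in L.bacterium335 and Acetatifactor, where it passed the filter through the libraries with broccoli. In L.bacterium335 its lowest, median and highest CPM were 0, 0 and 42.1 at 0%, 22.7, 235 and 489 at 0.5%, 150, 451 and 967 at 1%, and 0, 756 and 1354 at 2.5%. Apart from 2.5% replicate 9, where it was at 0, the 2.5% libraries lay above all 0% libraries, a separation not counted over other features. Its log2 fold change at 2.5% was 7.17 ± 0.82 (adjusted p = 1.146e-12, edgeR). All 4 counts at 0% came from replicate 4, without which the 0% group was at 0. The value was 6.58 without 2.5% replicate 6 and 6.57 without 2.5% replicate 8. In Acetatifactor, carE had a lowest, median and highest CPM of 0, 0 and 233 at 0%, 0, 179 and 1200 at 0.5%, 62.1, 508 and 824 at 1%, and 0, 673 and 1160 at 2.5%. In 9 of 10 libraries at 2.5% it exceeded every 0% library, with a log2 fold change of 3.90 ± 0.84 (adjusted p = 0.0001436, edgeR), and of 5.22 without 0% replicate 1. In D. muris, carE had a lowest, median and highest CPM of 392, 958 and 1540 at 0%, 382, 967 and 1487 at 0.5%, 858, 1337 and 1534 at 1%, and 829.4, 1107 and 1343 at 2.5%. No D. muris library at 2.5% lay outside the 0% range, and the log2 fold change was 0.14 ± 0.20 (adjusted p = 0.7473, edgeR, n = 9 each).

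In F. rodentium the car genes came in 2 copies, one with most of the counts. Copy carE_1 had a lowest, median and highest CPM of 396, 824 and 1453 at 0%, 700, 1136 and 1815 at 0.5%, 497, 1018 and 1754 at 1%, and 651, 1033 and 1479 at 2.5%. Copy carE_2 averaged 47.1 ± 42.9 CPM at 2.5% (n = 8) and 24.8 ± 12.3 CPM at 0% (n = 10). Their log2 fold changes at 2.5% were 0.22 ± 0.21 for carE_1 (adjusted p = 0.5526) and 1.25 ± 0.60 for carE_2 (adjusted p = 0.1729, edgeR). For carD, the other flavoprotein gene, carD_1 averaged 1709 ± 880 CPM at 2.5% and 1236 ± 505 CPM at 0%, and carD_2 averaged 23.2 ± 20.6 CPM at 2.5% and 16.98 ± 15.7 CPM at 0%. Copy carD_2 held 1.80 ± 1.77% of the counts of both carD copies over 36 libraries, and carE_2 held 3.46 ± 3.35% of those of both carE copies over 34 libraries (libraries with at least 50 counts on the pair). The sources used here do not say how reads shared by copies were counted, so the separate values of copies are uncertain. Neither pair of copies differed detectably in its change at 2.5%. The difference in log2(CPM + 10) change was 0.19 between carD_1 and carD_2 (adjusted p = 0.8705, exact permutation test) and 0.09 between carE_1 and carE_2 (adjusted p = 0.896, exact permutation test). Both signs turned without a library minimum (-0.99 and -0.85). The 10 CPM added before the log shrinks changes of copies as low as carD_2 and carE_2. The carE_2 share was 5.69 ± 4.38% at 2.5% (n = 7) and 2.65 ± 1.49% at 0% (n = 9), and the carD_2 share 2.18 ± 2.27% (n = 8) and 1.64 ± 2.03% (n = 10).

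In L.bacterium335, the single carD gene had a lowest, median and highest CPM of 0, 0 and 36.3 at 0%, 94.7, 225 and 881 at 0.5%, 96.4, 359 and 717 at 1%, and 0, 331 and 681 at 2.5%. All libraries with broccoli except 2.5% replicate 9 exceeded every 0% library, a separation not counted over other features. On 2 counts at 0%, the ratio at 2.5% was 149.8, with 41.4 to 1238 as its 95% counting interval (adjusted p = 6.297e-11, edgeR), and both counts came from 0% replicate 10, without which the 0% group was at 0. The butyrate kinase gene buk of X. muris was too scarce to test, with 1 count at 0%, 10 at 0.5%, 33 at 1% and 142 at 2.5%. Its mean level was 68.8 ± 30.9 CPM at 2.5% (n = 9) and 2.60 ± 6.88 CPM at 0% (n = 7), and without the low-count filter it did not pass the test (adjusted p = 0.1158, edgeR, with 3.46% of all features called higher).

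**Figure D3:**
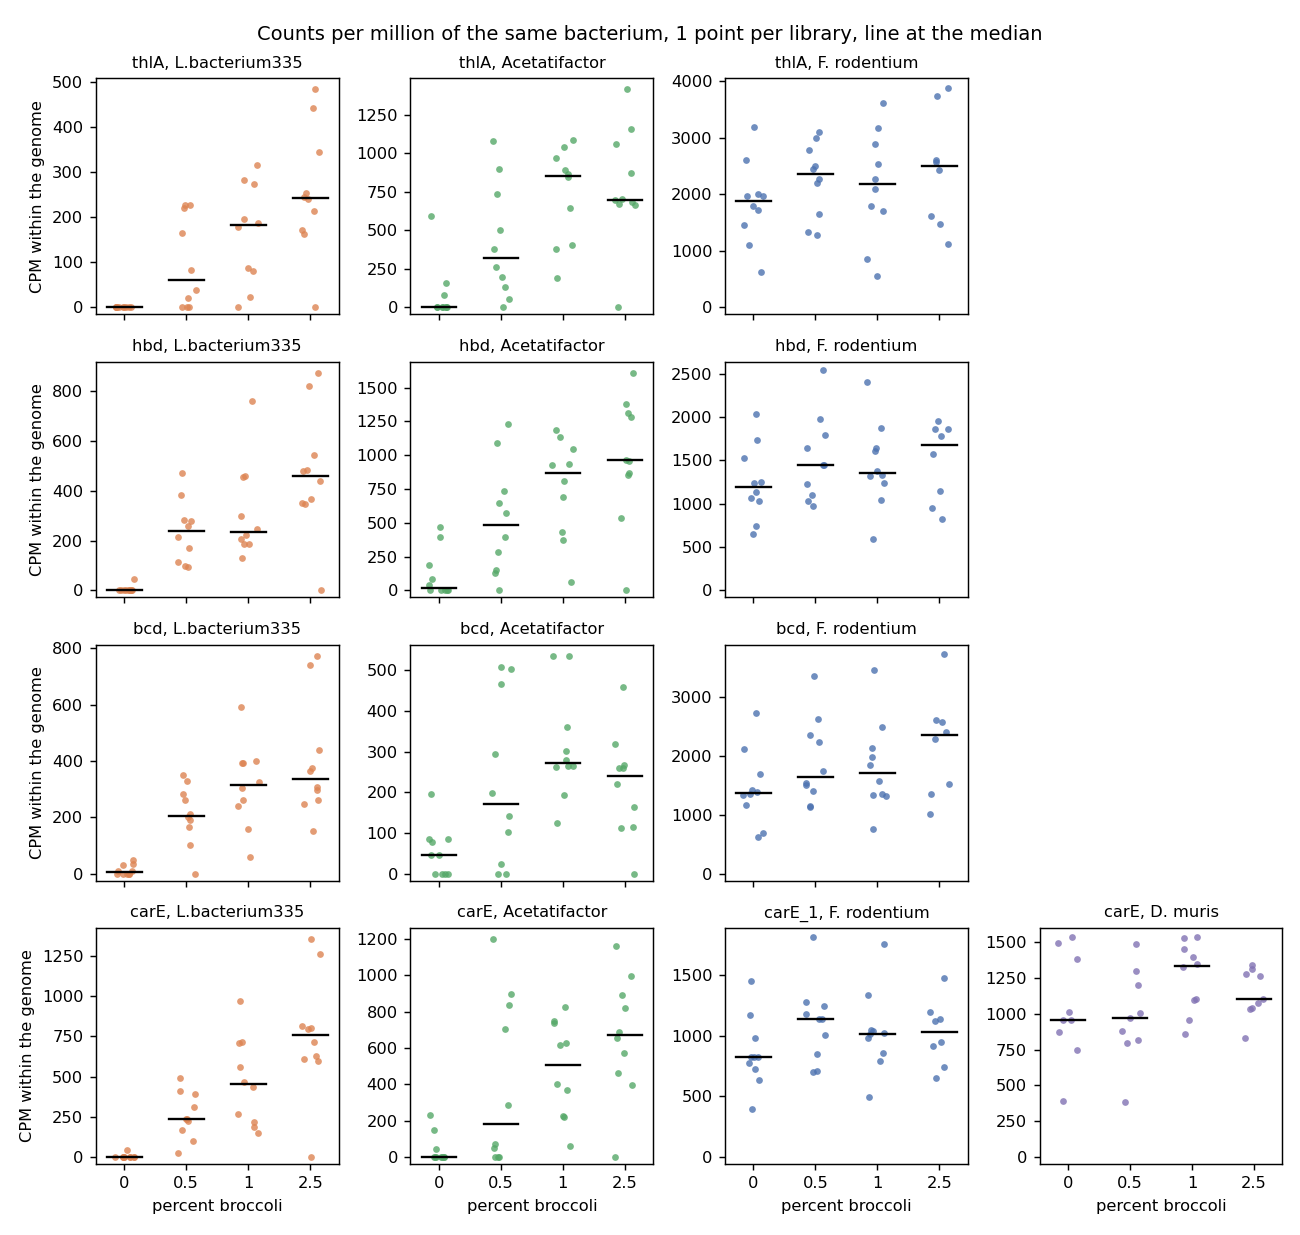
CPM within the same bacterium (vertical axes, linear and different in each panel) by broccoli percent for thlA, hbd, bcd and carE, with 1 point per library and a line at the median. For thlA, points of L.bacterium335 and Acetatifactor reach 484 and 1416 CPM at 2.5%, and their medians are 0 at 0%. Points of F. rodentium for the 4 genes and of D. muris for carE overlap across doses.

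Counted by bacterium, the tested genes of L.bacterium335 and Acetatifactor were all called higher at each dose, as were most tested features of L.bacterium335. In L.bacterium335, 5 of 5 tested genes were called higher at 0.5% (79.4% of all tested features), at 1% (78.4%) and at 2.5% (77.8%). These genes had 0 (thlA), 2 (carD), 3 (hbd), 4 (carE) and 14 (bcd) counts at 0% and passed the low-count filter through the libraries with broccoli. A call of higher was thus largely fixed by that filter, and these counts support nothing about the members. The median log2 fold change at 2.5% was 6.76 for the members and 7.94 for all 1384 features, of which 903 had 0 counts at 0%. With those set to their lower bounds, the medians were 6.72 for the members and 5.29 for all features, so the order of the medians turned with this choice. In Acetatifactor, 4 of 4 tested genes were called higher at 0.5% (21.6% of all tested features), at 1% (49.5%) and at 2.5% (54.5%). They too passed the filter through the libraries with broccoli, on 10 to 27 counts at 0%, so these counts support nothing about the members either. The median log2 fold change at 2.5% was 3.16 for the members and 1.81 for all 773 features. For Acetatifactor, another scaling (relative log expression, RLE) moved the median to 5.25 for the members and 3.84 for all features, and the calls to 70.2% higher and 2.72% lower, from 54.5% and 22.5% with TMM. For L.bacterium335 it moved the median to 9.32 for the members and 9.20 for all features, so that the members' median lay above that of all features there and below it with TMM, and the calls to 82.9% higher and 2.38% lower, from 77.8% and 15.03% with TMM. The members were called higher under both scalings, as were most tested features, and the same filter stood before both, so this adds no support.

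The Acetatifactor calls depended on 2 choices. With the total count on the genome as a covariate, 1 of 4 genes was called higher at 2.5% (carE), beside 9.57% of all tested features (54.5% without the covariate). The log2 fold changes of the other genes were then 1.78 for bcd (adjusted p = 0.1479), 2.16 for hbd (adjusted p = 0.06428) and 2.35 for thlA (adjusted p = 0.07012, edgeR). Without the libraries numbered 76 to 81, 4 of which are 0.5% libraries, 2 of 4 were called higher at 0.5%, beside 9.82% of all tested features (21.6% with them).

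Slopes on the percent of broccoli were called higher for 3 of 4 Acetatifactor genes (41.5% of all tested features) and 4 of 5 L.bacterium335 genes (33.7%). Log2 slopes per percent of broccoli were 0.87 for carE, 0.85 for thlA and 0.84 for hbd in Acetatifactor, and 1.47 for carE, 1.37 for thlA, 1.20 for hbd and 1.09 for bcd in L.bacterium335. The exceptions were Acetatifactor bcd (0.38, adjusted p = 0.2364) and L.bacterium335 carD (0.84, adjusted p = 0.07939, edgeR). These calls rested on the 0% libraries. A comparison among the 0.5, 1 and 2.5% libraries alone was added after the data were seen. There edgeR called 0 of 4 Acetatifactor genes in either direction (1.7% of all tested features, 0.212% higher). In L.bacterium335 it called 0 of 6 (2.25%, 0.4% higher). At an unadjusted p below 0.05 there were 0 of 4 in Acetatifactor (14.8% of all tested features) and 5 of 6 in L.bacterium335 (19.4%), led by carE with a slope of 0.77 ± 0.26 (SE, adjusted p = 0.08998). With the genome total as a covariate, no member's slope was called in either bacterium. Of all tested features, 27 of 773 were called in either direction in Acetatifactor (0.259% higher) and 0 of 1384 in L.bacterium335. With RLE factors 4 of 4 (68.3% of all tested features) and 5 of 5 (82.5%) were called higher.

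In F. rodentium, 0 of 8 genes were called in either direction at 0.5% (8.47% of all tested features), at 1% (0.474%), at 2.5% (9.41%) or for the slope (5.98%) by edgeR. DESeq2 also called 0 of 8 in these comparisons, beside 13.4%, 1.07%, 16.2% and 11.9% of all tested features. At an unadjusted p below 0.05 in edgeR there were 0, 1, 2 and 0 genes, beside 21.2%, 8.53%, 26.4% and 21.8%. The median log2 fold change at 2.5% was 0.41 for the 8 genes and 0.01 for all 1689 features. With RLE factors it was 0.54 and 0.12, and with a library minimum of 50000 counts 0.01 and 0.03, where carD_1 (-0.07), carE_1 (-0.0001), crt (-0.03) and thlA (-0.01) turned sign. In D. muris, carE was not called at 0.5% (4.96% of all tested features in either direction), at 1% (6.23%), at 2.5% (10.6%) or for the slope (8.30%) by edgeR. DESeq2 did not call it either, beside 6.14%, 7.4%, 11.9% and 11.3% of all tested features. Its unadjusted p in edgeR was above 0.05 in each, where 14.5%, 15.5%, 21.7% and 19.3% of all tested features had one below.

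As CPM of the 6 tables, a scale that follows how much RNA each bacterium supplied, 6 of 8 F. rodentium genes fell at 2.5%. The tested genes of L.bacterium335 and Acetatifactor were called higher, as were most tested features of these bacteria (85.2% and 73.8%). D. muris carE rose in the edgeR test but not with TMM factors over the 6 tables. F. rodentium thlA averaged 239 ± 204 at 2.5% and 1428 ± 805 at 0% (SD, n = 10 each), and 6 of 10 libraries at 2.5% lay below the lowest 0% library. Its log2 fold change was -2.58 ± 0.71 (adjusted p = 0.0009471, edgeR). In all, 6 of 8 F. rodentium genes fell at 2.5% (90.9% of all tested features), with log2 fold changes from -2.66 (carE_1) to -2.37 (bcd). The exceptions were the minor copies carD_2 (-1.56 ± 0.76, adjusted p = 0.0529) and carE_2 (-1.07 ± 0.84, adjusted p = 0.2258). DESeq2 called 7 of 8 lower, carD_2 included (93.3% of all tested features), and TMM factors over the 6 tables called 8 of 8 (97.7%). In edgeR, carD_2 also passed when 0% replicate 1, 2, 6 or 10 or 2.5% replicate 7 or 8 was left out, and without 2.5% replicate 8 its value was -2.49 and that of carE_2 -1.67. The median was -2.56 for the 8 genes and -2.56 for all features of F. rodentium. At 0.5% and 1% the test called 0 of 8 (1.18% and 0.827% of all tested features), with 0 of 8 at an unadjusted p below 0.05 (1.95% and 2.07%).

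On the same scale, 6 of 6 genes of L.bacterium335 rose at 0.5% (79.8% of all tested features), at 1% (83.8%) and at 2.5% (85.2%). Its carE averaged 551 ± 306 at 2.5% and 1.26 ± 3.99 at 0%, and its bcd 282 ± 175 at 2.5% and 1.96 ± 2.65 at 0%. In Acetatifactor 4 of 4 genes rose at 0.5% (30.9%), at 1% (71.2%) and at 2.5% (73.8%). Its hbd averaged 169 ± 106 at 2.5% and 3.26 ± 4.57 at 0%, and its carE 115 ± 73.7 at 2.5% and 1.05 ± 2.18 at 0%. Log2 fold changes at 2.5% were 6.43 for carE and 5.58 for hbd (7.51 and 6.23 without 0% replicate 1), 6.18 for thlA (7.02 without 0% replicate 8) and 4.43 for bcd. Medians at 2.5% were 9.26 for the members and 8.58 for all tested features in L.bacterium335, and 5.88 and 4.63 in Acetatifactor. On this scale too, the genes of both bacteria passed the low-count filter through the libraries with broccoli, so these calls support nothing about the genes. D. muris carE was not called at 0.5% (3.81% in either direction) and rose at 1% (29.5%) and at 2.5% (58.7%). It averaged 97.9 ± 66.4 at 2.5% and 31.6 ± 22.4 at 0%, with a log2 fold change of 1.64 ± 0.63 (adjusted p = 0.01614, edgeR). With TMM factors over the 6 tables that change was 0.35 and no longer passed the test (adjusted p = 0.6037, with 3.56% of D. muris features called higher).

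**Figure D4:**
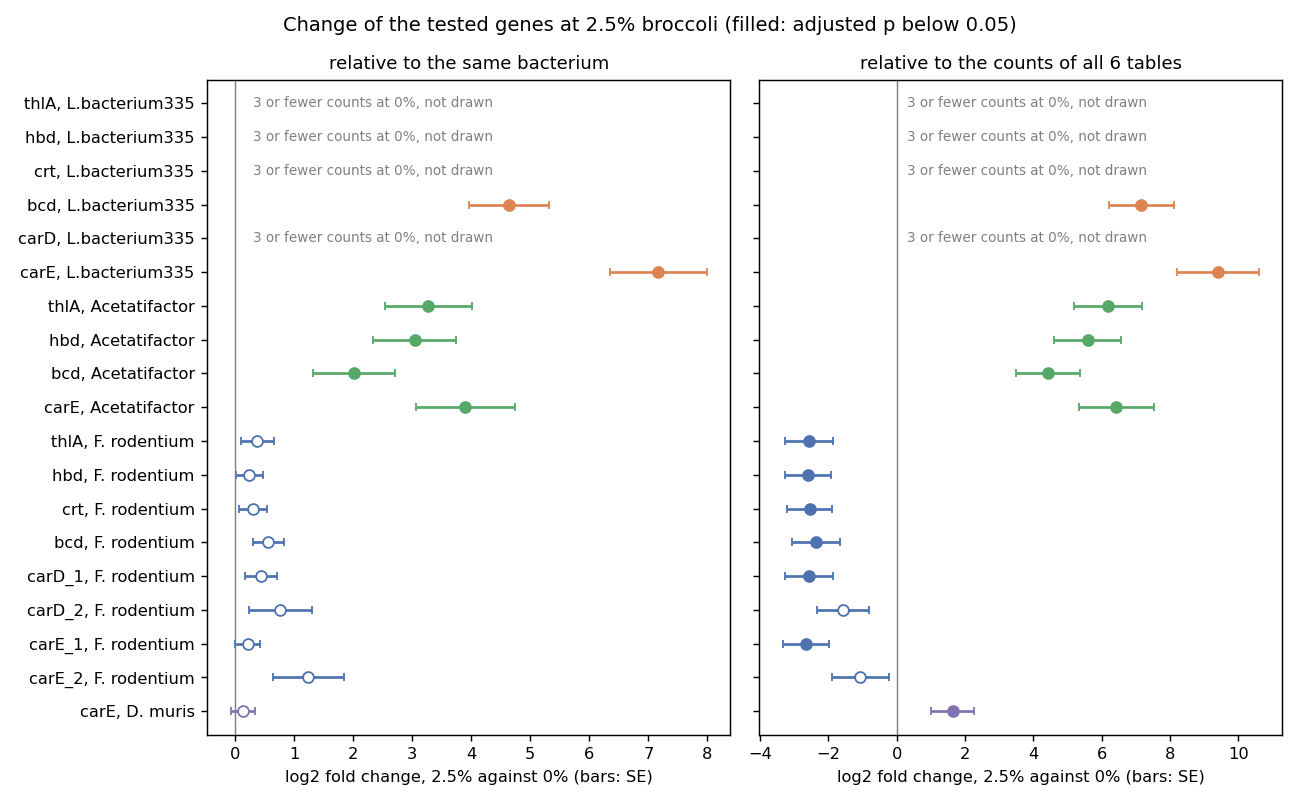
Log2 fold change at 2.5% against 0% with its SE (horizontal axes) for each tested gene, relative to the same bacterium (left) and to all counts of the 6 tables (right), filled where the adjusted p was below 0.05. F. rodentium genes lie between 0.22 and 1.25 on the left, none filled, and between -2.66 and -1.07 on the right, with 6 of 8 filled. L.bacterium335 genes with 3 or fewer counts at 0% are not drawn.

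The change of the same gene at 2.5% against 0% was compared between bacteria within libraries, as the difference of log2(CPM + 10), with the F. rodentium copies of carD and carE summed, over 18 pairs, of which 11 passed a permutation test at an adjusted p below 0.05. The L.bacterium335 and Acetatifactor genes passed the low-count filter through the libraries with broccoli. Median log2 fold changes of all tested features at 2.5% were 7.94 (L.bacterium335), 1.81 (Acetatifactor), 0.01 (F. rodentium) and 0.08 (D. muris). A larger change in L.bacterium335 or Acetatifactor was thus largely fixed beforehand, and these pairs support nothing particular to the genes. Changes in L.bacterium335 exceeded those in F. rodentium for every gene tested in both. The F. rodentium change minus the L.bacterium335 change was -4.30 for thlA, -5.05 for hbd, -3.72 for bcd, -4.34 for carD and -5.72 for carE (each adjusted p = 0.0001371, exact permutation test, for 8 libraries on 2.5% against 10 on plain diet). For each gene, all 8 of those had a difference under the 0% mean. Acetatifactor changes exceeded those of F. rodentium by 3.99 for thlA (adjusted p = 0.0032), 3.56 for hbd (adjusted p = 0.00724) and 4.08 for carE (adjusted p = 0.002116, exact permutation tests), in 7 of 8 libraries at 2.5%. For bcd the excess was 1.43, which did not pass (adjusted p = 0.1025, exact permutation test). Without a library minimum it was 3.14 and passed (adjusted p = 0.02523, permutation test). Between Acetatifactor and L.bacterium335, thlA, hbd and carE differed by 0.17, -0.89 and -1.05 with adjusted p of 0.896, 0.6097 and 0.5574 (permutation test). The sign turned for thlA with a pseudocount of 1 CPM (-0.77) and for hbd with one of 100 CPM (0.12). The bcd change was 2.14 smaller in Acetatifactor, with a difference of -2.14 (adjusted p = 0.03053, permutation test) and all 10 libraries at 2.5% below the 0% mean. That pair did not pass with a pseudocount of 1 CPM (-2.98, adjusted p = 0.1197). For carE, D. muris differed from L.bacterium335 by -5.87 (adjusted p = 0.0001371) and Acetatifactor from D. muris by 4.08 (adjusted p = 0.002592), while D. muris and F. rodentium differed by -0.11 (adjusted p = 0.6097, exact permutation tests), and by 0.61 without a library minimum.

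Within F. rodentium, 6 of the 8 genes varied together across libraries. Pairwise Pearson r of log2 CPM among thlA, hbd, crt, bcd, carD_1 and carE_1 was 0.82 to 0.94 over 38 libraries. The minor copies carD_2 and carE_2 had r of -0.33 to -0.04 with those 6 and 0.35 with each other. In L.bacterium335 the 5 tested genes had r of 0.76 to 0.94, and in Acetatifactor the 4 tested genes 0.73 to 0.92, over 40 libraries each, in which the contrast between 0% and broccoli libraries is included. These points share libraries and depth, and the values are descriptions. As parts of the F. rodentium counts on its 8 genes, thlA made up 25.1 ± 2.13% at 2.5% (n = 8) and 25.6 ± 3.19% at 0% (n = 10), hbd 16.1 ± 2.07% and 17.8 ± 1.83% in the same groups, and bcd 22.8 ± 1.97% and 20.1 ± 1.46%.

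The symbols whose pattern was most like the leading gene of each genome, by Pearson r of log2 CPM, were ppdK (0.88), purC (0.87) and hppA1 (0.86) for thlA of F. rodentium over 38 libraries. For carE of L.bacterium335 they were ppsA (0.95), mglC (0.95) and fliG (0.95), and for hbd of Acetatifactor glgD (0.94), pflB_1 (0.93) and fusA_2 (0.91), over 40 libraries each. For carE of D. muris they were galK (0.65), glgE (0.61) and deaD_2 (0.59) over 37 libraries.

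A list of genes of acetyl-CoA supply and redox was counted on the scale within the genome. It had 16 rows in L.bacterium335, of which 11 passed the low-count filter, and 12 in Acetatifactor, of which 6 did. At 2.5%, 11 of 11 tested genes rose in L.bacterium335 (77.8% of all tested features) and 6 of 6 in Acetatifactor (54.5%). As with the members, the filter was passed mainly through the libraries with broccoli (Acetatifactor pflB_2, well counted at 0% too, was an exception), so that nothing about the list is read from these counts. The list's median log2 fold change at 2.5% was 7.92 in L.bacterium335 and 2.32 in Acetatifactor (7.94 and 1.81 over all tested features). Genes named at 2.5% are the called ones of smallest p, at most 2 per bacterium. In L.bacterium335, pta_2, a phosphate acetyltransferase, averaged 541 ± 281 CPM at 2.5% and had 0 counts at 0%, at least 168.8-fold higher, and ackA, the acetate kinase, had 5739 counts at 2.5% and 1 at 0%, 644.5 times as much for its library size, with 115.6 to 25460 as the 95% counting interval. In Acetatifactor, pflB_1, a pyruvate formate-lyase, averaged 2892 ± 1144 CPM at 2.5% and 372 ± 428 CPM at 0%, a log2 fold change of 2.97 ± 0.69 (adjusted p = 0.0003373, edgeR). Its ackA averaged 390 ± 186 CPM at 2.5% and 68.2 ± 82.3 CPM at 0% (2.49 ± 0.70, adjusted p = 0.001889, edgeR). The edgeR test called 0 of 8 list genes in D. muris and 0 of 8 in F. rodentium at 2.5%, with 0 and 2 of them at an unadjusted p below 0.05 (21.7% and 26.4% of all tested features). For the slope, 1 of 8 list genes was called in F. rodentium (5.98% of all tested features), where the list's median slope was 0.02. It was pflA, the activating enzyme of pyruvate formate-lyase (0.64 ± 0.19 per percent, adjusted p = 0.03616, edgeR). Slopes were called for 0 of 8 in D. muris (8.30%) and 0 of 2 in X. muris (7.31%). They were called higher for 6 of 11 in L.bacterium335 (33.7%) and 5 of 6 in Acetatifactor (41.5%), where the filter's limit applies again. In X. muris 1 of 2 rose (9.55% of all tested features), nifJ, a pyruvate:ferredoxin oxidoreductase, with 3531 ± 738 CPM at 2.5% (n = 9) and 1552 ± 1012 CPM at 0% (n = 7), a log2 fold change of 1.14 ± 0.35 (adjusted p = 0.01828, edgeR).

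Of a list of further butyrate and crotonyl-CoA genes, few were present. L.bacterium335 buk2, a second butyrate kinase symbol, averaged 171 ± 85.4 CPM at 2.5% and had 0 counts at 0%, at least 49.1-fold higher. Its gcdB, a subunit of glutaconyl-CoA decarboxylase, which makes crotonyl-CoA from glutamate-derived glutaconyl-CoA, averaged 433 ± 182 CPM at 2.5% and had 0 counts at 0%, at least 134.6-fold higher. Acetatifactor gcdB was called higher as well, with 250 ± 111 CPM at 2.5% and 66.0 ± 89.8 CPM at 0% (1.92 ± 0.71, adjusted p = 0.01384, edgeR). Its change lay near the median over all tested Acetatifactor features (1.81). Of all tested features, 77.8% in L.bacterium335 and 54.5% in Acetatifactor were called higher at 2.5%. These list genes passed the low-count filter through the libraries with broccoli, so nothing about the list is read from their changes. The 2 tested list genes of D. muris, fixA and gcdB, were not called by edgeR, with an unadjusted p below 0.05 for 1 of them (gcdB, log2 fold change -0.42, adjusted p = 0.1089), and the list had no tested gene in F. rodentium or X. muris.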

How the data were processed

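The deposited values were raw counts per feature in 6 tables, 1 per bacterial genome, with 1 column per library, per the file headers. They are whole numbers with a different total in each library. The sources used here do not name an aligner, counter, strand setting or genome version. Groups come from the treatment labels. Replicates were numbered by accession within a group, and the numbers link no libraries. Per bacterium, libraries with at least 10000 counts were kept, edgeR's filterByExpr and TMM factors were applied, and each dose and a slope were tested with edgeR 4.0.16 (R 4.3.3, quasi-likelihood, two-sided, Benjamini-Hochberg over all tested features, threshold 0.05). A second fit used the totals of the 6 tables. Of X. muris, 5 features for stable RNAs were dropped. Each SE is the size of the log2 change over the root of its F value. Differences between bacteria were tested by permuting the 2.5% and 0% libraries, exactly where a group had fewer than 10 libraries and otherwise with 100000 resamples (scipy 1.17.1), on log2(CPM + 10).

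Counting intervals and floors cover counting error only. No pair of libraries within a group was alike within sampling noise (180 pairs, smallest chi-square per degree of freedom 10.6). The fits were run on simulated data with as many raised as lowered features, unlike the data of L.bacterium335 and Acetatifactor. That run does not show how the fits behave in these bacteria. All 21 genes are accounted for, with per-library values for thlA, hbd, bcd, carE and called genes, and the 3 symbols most like the leading gene of each genome. The members, lists and tests were chosen with earlier results of these data known. Alternatives were RLE or no scaling, no filter, other library minima, DESeq2 1.42.0, the genome total as a covariate, other pseudocounts and leaving out libraries. Bacterial sequences were not used here.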

Additional observations from a re-analysis of the deposited data

Results flagged for a closer look

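Of 72 groups of libraries examined, 16 had 1 library far from the rest by Dixon's gap test. Its rate of about 1 in 20 groups by chance is for independent, normally spread values. That rate does not apply here, as some groups were at 0 in all but 1 library and several flags share a library. Levels are CPM within the genome. In Acetatifactor at 2.5%, replicate 8 had 0 CPM for thlA (666 to 1416 in the others), hbd (536 to 1610), bcd (111 to 459) and carE (397 to 1160). This library had 14.9% of Acetatifactor features detected. At 1%, Acetatifactor replicate 6 had 62.144 CPM for both carE (222 to 824 in the others) and hbd (375 to 1189), and at 0.5% replicate 5 had 0 CPM for hbd (130 to 1233). In L.bacterium335 at 2.5%, replicate 9 had 0 CPM for thlA (161.4 to 484 in the others), hbd (349 to 876), carD (176 to 681) and carE (596 to 1354). At 0.5%, L.bacterium335 replicate 10 had 0 CPM for bcd (102 to 351). At 0% a single library held every count of 3 L.bacterium335 genes, with 46.574 CPM of hbd in replicate 3, 42.051 CPM of carE in replicate 4 and 36.252 CPM of carD in replicate 10. D. muris carE was 381.53 CPM in 0.5% replicate 4 (794 to 1487 in the others).

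The change of a gene at 2.5% against 0% differed between bacteria, by permutation tests adjusted over 18 pairs, in 11 pairs. The F. rodentium change minus that of L.bacterium335 was -4.298 for thlA, -5.0469 for hbd, -3.7229 for bcd, -4.336 for carD and -5.7185 for carE. The Acetatifactor change minus that of F. rodentium was 3.9904 for thlA, 3.5612 for hbd and 4.0784 for carE. The other 3 were Acetatifactor minus L.bacterium335 for bcd (-2.1381), Acetatifactor minus D. muris for carE (4.0818) and D. muris minus L.bacterium335 for carE (-5.8697). The L.bacterium335 and Acetatifactor genes passed the low-count filter through the libraries with broccoli, so these differences support nothing particular to the genes.

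Alistipes, outside the 5 genomes compared, had 84 counts of carD and 131 of carE over 10 libraries at 2.5%, against 0 and 1 at 0%. Its table held 161531 counts at 2.5% and 1620 at 0%.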

How the results depend on the processing

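Leaving out each 0% and 2.5% library in turn changed none of 156 counts of called genes by more than 1.5 times, and 716 fold changes kept their call while 6 gained one (F. rodentium carD_2). Without 2.5% replicate 6 the L.bacterium335 change of carD, and without 2.5% replicate 8 that of hbd, was more than 1.5 times smaller and still called. Under the other alternatives 180 counts and differences between bacteria kept theirs. With the genome total as a covariate, calls at 2.5% fell to 1 of 4 in Acetatifactor, slope calls to 0 in Acetatifactor and 0 in L.bacterium335, and D. muris carE was -0.3495. Without the 0% libraries, chosen after seeing the data, slope calls were 0 in both. Without the libraries numbered 76 to 81, Acetatifactor had 2 calls at 0.5%. With TMM over the 6 tables, D. muris had 0 calls. With at least 50000 counts a library, F. rodentium carD_1 was -0.0737, carE_1 -0.0001, crt -0.0274 and thlA -0.0142. That minimum could not be run for Acetatifactor, D. muris and X. muris. Between Acetatifactor and L.bacterium335, a pseudocount of 1 gave -2.9782 for bcd, no longer past the threshold, and -0.7726 for thlA, and one of 100 gave 0.1184 for hbd. Without a library minimum, bcd in Acetatifactor minus F. rodentium was 3.1383 and passed, carE in D. muris minus F. rodentium was 0.6059, carD_1 minus carD_2 was -0.988 and carE_1 minus carE_2 was -0.8493. The cause of these changes was not tested. No paired analysis was possible because the labels number no replicates. Few counts at 0% limit the precision of the L.bacterium335 and Acetatifactor changes.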
